A study of Saccharomyces cerevisiae with 5 samples.

Results

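The genes described here are 60 budding yeast (Saccharomyces cerevisiae) genes for ribosome biogenesis factors, the nucleolar proteins that process pre-rRNA and assemble it with ribosomal proteins into subunits. They were taken by name, with no measured value in the rule, but the list was chosen with earlier results of these data known. All 60 were found among the 5539 genes of the platform that carried 4 of the arrays, each with 2 adjacent spots. All 60 were also on the platform of the fifth array, with 2 spots for 14 genes and 1 spot for 46. Each array set 2 RNA pools against each other, 1 per channel: RNA pulled down with zz-tagged Yra1 and RNA pulled down with zz-tagged Mex67. The zz tag is an IgG-binding part of protein A. Mex67 is the main receptor that carries mRNA through the nuclear pore, and the adaptor Yra1 binds RNA and recruits Mex67 to it. The 5 arrays form 1 group, called replicates 1 to 5 here, with replicate 1 on a platform of its own. The labels give no strain background, growth condition, separate culture, dye or dye swap, so a p-value here reflects array-to-array spread alone, which could be technical. No input RNA and no precipitate from untagged cells is among the samples used here.

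Ribosome biogenesis begins on nascent pre-rRNA in the nucleolus. Small nucleolar ribonucleoproteins (snoRNPs) modify the transcript, the U3 snoRNP and the Utp complexes build the small-subunit processome on its leading part, and a separate set of helicases, GTPases, methyltransferases and scaffold proteins assembles the large subunit. The mRNAs of these factors are made by RNA polymerase II and, in growing yeast, form one of the largest co-regulated groups of genes. What was measured here is how these mRNAs were recovered with one export protein relative to the other, not the export of ribosomal subunits.

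Values are log2 ratios of the 2 channels relative to the median of each array. Which channel was divided by which is not stated in the sources used here, so "lower" and "higher" refer to the deposited ratio and name no precipitate. The titles of all 5 arrays name Yra1 before Mex67, so the labels give 1 orientation and mark no array as reversed. The arrays' own medians before centring were 0.32, 1.96, -2.81, -1.45 and -1.59 for replicates 1 to 5. Replicate 2 thus lay on the other side of 0 from the rest of its platform. Such a median does not by itself give a direction, and that of replicate 2 relative to the others is not settled. Turning the sign of replicate 2 changed the sign of 24 of the 60 gene means (40%, against 42.2% of all genes), so values with replicate 2 turned are given beside those as deposited. On the platform of 4 arrays, outer spots of a block often held the same value as a neighbouring spot, for 56.0, 15.8, 28.6 and 73.3% of 6528 outer spots on replicates 2 to 5, while among inner neighbours this share was 0%. Signal over background could not be assessed from ratios.

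No ribosome biogenesis gene passed the test. By limma over replicates 2 to 5, with Benjamini-Hochberg adjustment over all 5539 genes, 0 of the 60 genes were past the threshold of 0.05, and 0% of all genes were (smallest adjusted p = 0.834). At an unadjusted p under 0.05, 2 of the 60 genes had lower ratios, or 3.33%, against 3.99% of all genes, and 0 had higher ratios, against 1.43% of all genes. The 2 genes were DBP9, an RNA helicase gene, and EBP2, a gene for a large-subunit assembly factor. Both shares lie near or below those of all genes, so neither is a result about the group. The design limits what could be seen. In simulated data for this comparison over 5539 genes the test recovered 1.7% of changes of 1 log2 unit. It recovered 41.2% of changes of 2 and 87.8% of changes of 3. Changes of 1 to 4 units were mixed in each draw, each in 1 direction on all 4 arrays. These shares could therefore be too high where fewer genes change or replicate 2 runs the other way.

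As a group the genes lay close to all other genes on every array. The median of the 60 minus the median of the other genes was 0.17, -0.01, -0.29 and -0.09 on replicates 2 to 5. As deposited its mean was -0.06 ± 0.19 (SD, n = 4), a 1.04-fold difference, which is smaller than the spread between arrays. With replicate 2 turned the mean was -0.14, with the difference below 0 on each of these 4 arrays, and this was not tested. On replicate 1 the difference was -0.01. The median of the gene means was -0.10 for the 60 genes and -0.02 for all genes tested, with 35 of the 60 means below 0 (58.3%, against 51.3% of all genes). With replicate 2 turned these medians were -0.07 and 0.03, with 33 of the 60 means below 0, against 2620 of all 5539.

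The 60 means ran from -1.54 for DBP9 to 0.80 for UTP8, while those of all genes ran from -2.86 to 2.53. A mean further than 1 log2 unit from 0 was found for 2 of the 60 genes, DBP9 and UTP7, or 3.33% against 8.14% of all genes. With replicate 2 turned the means ran from -1.55 for DBP9 to 1.40 for RRP8, and 4 of the 60 were past 1 unit, DBP9, NOP7, RRP1 and RRP8, or 6.67% against 7.53%. RRP1 and RRP8 lie side by side on the platform. As deposited they were at -1.97 and -2.31 on replicate 2, where the spots around them had medians of -2.02 and -2.14. DBP9 was the lowest and past 1 unit either way, and the other genes past 1 unit depended on the direction of replicate 2. Spread over replicates 2 to 5, as the median SD per gene, was 0.66 for the 60 genes and 0.77 for all genes tested. The share of genes further than 1 log2 unit from 0 on a single array was 33.3, 16.7, 25 and 18.3% of the 60 on replicates 2 to 5, against 38.4, 18.1, 21.4 and 24.9% of all genes. On replicate 1 it was 15.0%, against 19.3%. The share was below that of all genes on 4 of the 5 arrays and above it on replicate 4, and the difference was not tested.

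**Figure D1:**
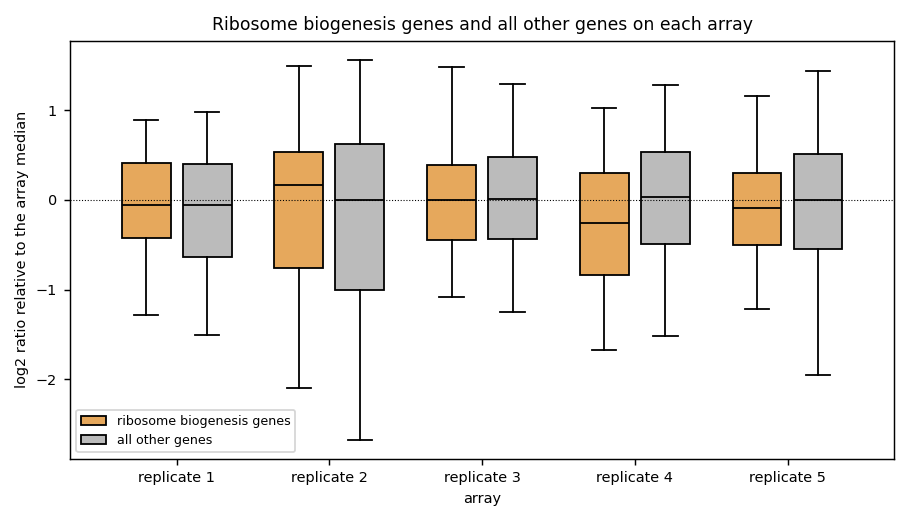
Log2 ratios relative to the array median (vertical axis) of the 60 ribosome biogenesis genes (left, orange) and of all other genes (right, grey) on each array; boxes span the quartiles with the median as a line, and whiskers run from the 5th to the 95th percentile. The boxes overlap on all 5 arrays, with the median difference furthest from 0 on replicate 4 (-0.29).

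How many genes kept 1 sign across arrays depended on the direction of replicate 2. As deposited, EBP2 and RRP5 were below 0 on all of replicates 2 to 5 (2 of 60 genes, against 7.13% of all genes), and NOP14 was above 0 on all of them (1 of 60, against 7.11%). A gene with 1 sign on all 4 arrays must lose it when replicate 2 is turned, so these 3 could not keep theirs. With replicate 2 turned 7 others were below 0 on all 4 arrays (DBP6, DBP9, DRS1, ERB1, NOP2, RRP9 and RRP14, against 6.43% of all genes). Another 4 were above it (GAR1, IMP3, NUG1 and RRP8, against 7.2%). The share with 1 sign was thus 5% as deposited and 18.3% turned, below and above the 14.2 and 13.6% of all genes. These differences were not tested. Some of the turned cases rest on a replicate 2 value near 0, deposited as 0.02 for DBP9, 0.03 for DRS1 and -0.07 for GAR1. With replicate 1 included and replicate 2 as deposited, RRP5 alone of the 60 kept its sign on all 5 arrays, where 6.61% of all genes did. For 32 of the 60 genes the sign on replicate 1 was opposite to that of the mean of the other arrays, or 53.3% against 50.9% of all genes.

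**Figure D2:**
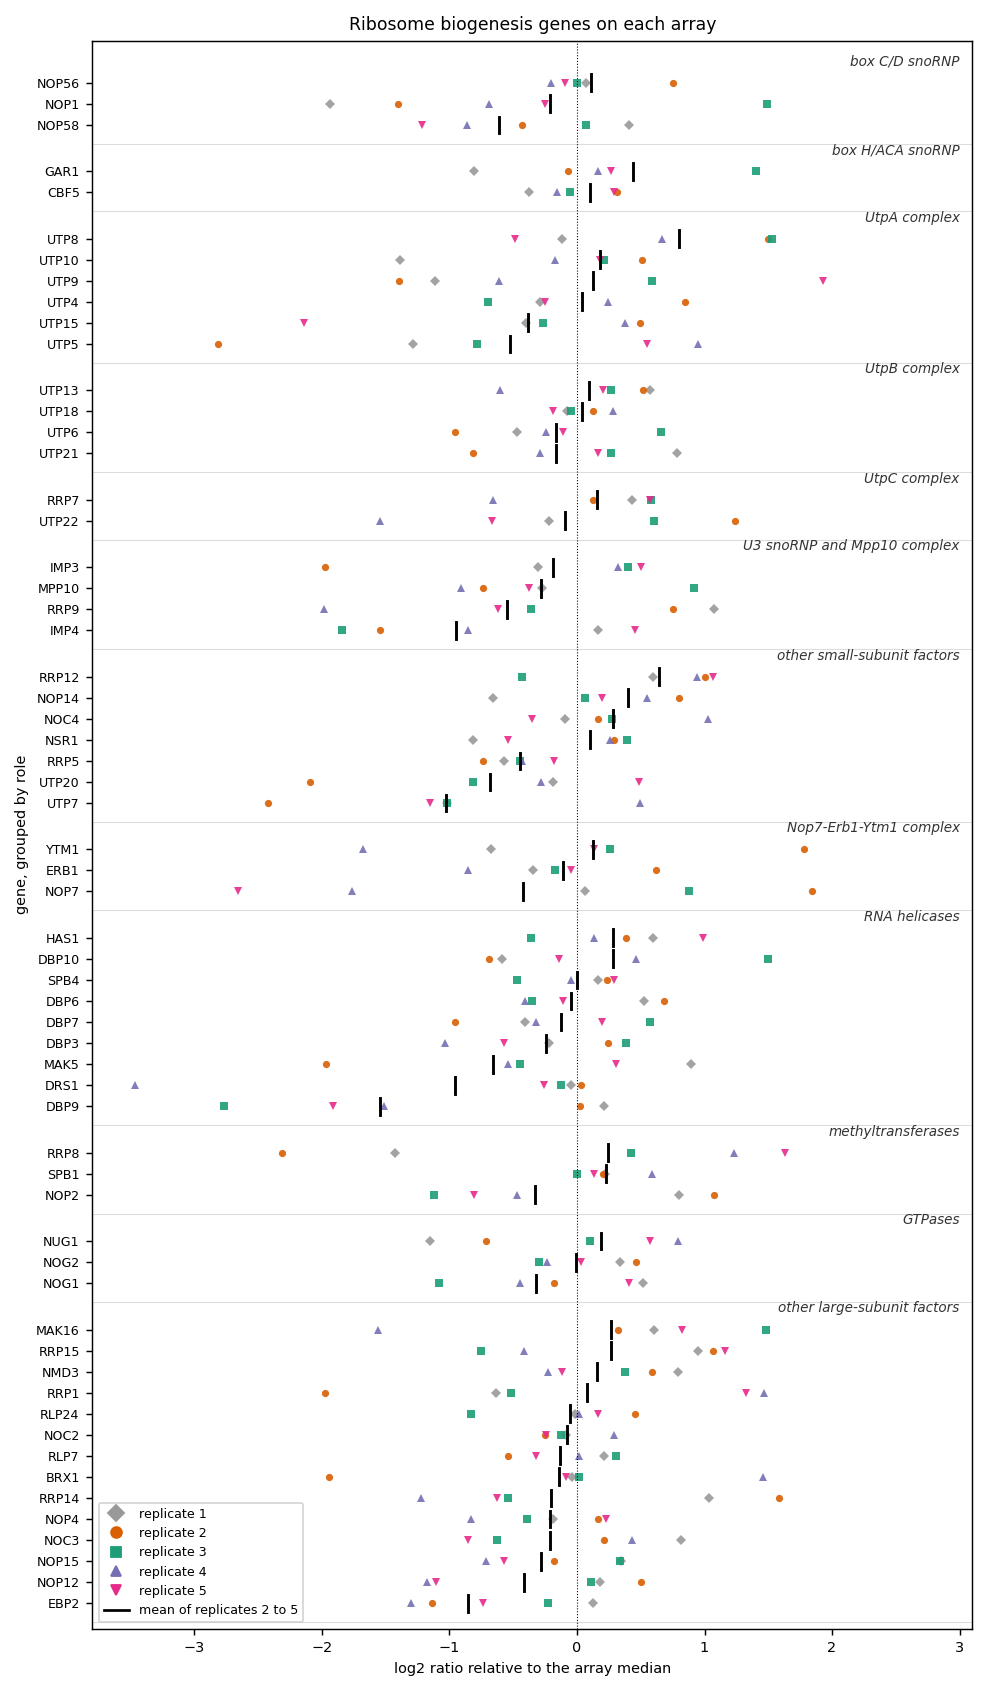
Log2 ratio relative to the array median (horizontal axis) of each of the 60 genes, grouped by role (vertical axis); coloured symbols are the arrays and black bars the means of replicates 2 to 5. Most genes have arrays on both sides of 0, DBP9 has the lowest mean (-1.54), UTP8 the highest as deposited (0.80, or 0.053 with replicate 2 turned), and DRS1 has 1 array far from its others (-3.46 on replicate 4).

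Among the modification snoRNPs, box C/D particles guide rRNA methylation and box H/ACA particles guide pseudouridine formation. Of the 5 genes in both groups 0 passed at an unadjusted p under 0.05. NOP58, which encodes a core box C/D protein, had log2 ratios of -0.44, 0.07, -0.86 and -1.22 on replicates 2 to 5 and 0.40 on replicate 1. It was below 0 on 3 of the 4 arrays, with a mean of -0.61 ± 0.56 (SD, n = 4), or -0.39 with replicate 2 turned. The spots around it had medians of -0.35, 0.03, -0.49 and -0.87 on replicates 2 to 5. With the surrounding median removed its mean was -0.19, and it held a shared value on 2 arrays. The other box C/D genes, NOP1 (the fibrillarin methyltransferase) and NOP56, had means of -0.21 and 0.11.

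GAR1, a core box H/ACA protein gene, was at -0.07, 1.41, 0.16 and 0.27 on replicates 2 to 5, and at -0.81 on replicate 1. Its mean of 0.44 ± 0.66 (SD, n = 4) came mostly from replicate 3. CBF5, which encodes the pseudouridine synthase of these particles, was at 0.31, -0.06, -0.16 and 0.29, with -0.38 on replicate 1. At 0.10 ± 0.24 it had one of the 3 smallest SDs of the 60 genes and lay near the array median on each of the 4 arrays.

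The UtpA and UtpB complexes bind the start of the pre-rRNA and form the base of the small-subunit processome, of which UtpC is another part. As deposited, of the 12 genes of UtpA, UtpB and UtpC 7 averaged above 0 and 5 below 0, and 0 passed at an unadjusted p under 0.05. UTP8 of the UtpA complex had the highest mean of the 60 genes as deposited, with 1.49, 1.53, 0.66 and -0.49 on replicates 2 to 5 and -0.12 on replicate 1. It was higher on 3 of 4 arrays, at a mean of 0.80 ± 0.95 (SD, n = 4) with an adjusted p = 0.834 by limma. Its mean was 0.053 with replicate 2 turned. The 1.49 on replicate 2 averages spots at 0.27 and 2.72, a difference of 2.45, which was the largest between duplicate spots of the 60 genes on that array.

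UTP5, another UtpA gene, had one of the 3 largest SDs, with -2.81, -0.79, 0.95 and 0.55 on replicates 2 to 5 and -1.29 on replicate 1. Its mean of -0.52 ± 1.70 (SD, n = 4) joins arrays on both sides of 0, and was 0.88 with replicate 2 turned. The spots around it had medians of -2.60, -0.62, 0.55 and 0.22 on the same arrays, so its ratio ran alongside theirs. Within UtpA, whose products form 1 complex, the 6 genes spread over 1.56 to 4.31 log2 units on each of replicates 2 to 5 and over 1.27 on replicate 1. The spread was widest on replicate 2, between UTP8 at 1.49 and UTP5 at -2.81. On replicate 5 UTP9 was the highest of all 60 genes at 1.93, while UTP15 stood at -2.14.

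In the UtpB complex the 4 means lay between -0.17 and 0.10. UTP18 was at 0.13, -0.05, 0.28 and -0.19 on replicates 2 to 5 and at -0.08 on replicate 1, with a mean of 0.04 ± 0.21 (SD, n = 4), the smallest SD of the 60. UTP21 was at -0.81, 0.27, -0.29 and 0.16, with 0.78 on replicate 1, and its mean was -0.17 ± 0.49. Both genes fell on either side of 0 from array to array, and both means changed sign with replicate 2 turned, to -0.021 for UTP18 and 0.24 for UTP21. In the UtpC complex RRP7 was at 0.12, 0.58, -0.65 and 0.57, and 0.43 on replicate 1, with a mean of 0.16 ± 0.58, and UTP22 had a mean of -0.09.

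The U3 snoRNP and its Mpp10 partners, which guide the first cleavages of the pre-rRNA, had all 4 means below 0 as deposited, from -0.95 to -0.19. IMP3 was above 0 on 3 of the 4 arrays, at -1.97, 0.40, 0.32 and 0.50 on replicates 2 to 5. With replicate 2 turned 2 of the 4 means were below 0 and 2 above it (IMP3 at 0.80 and MPP10 at 0.091), and with the median of the surrounding spots removed the same 2 genes were above 0, at 0.25 and 0.013. Of these 4 genes 0 passed at an unadjusted p under 0.05. IMP4, which encodes a protein that binds the U3 snoRNA with Mpp10, was at -1.55, -1.85, -0.86 and 0.46 on replicates 2 to 5 and at 0.16 on replicate 1. It was lower on 3 of the 4 arrays, at -0.95 ± 1.02 (SD, n = 4), limma's adjusted p = 0.834. On replicates 3, 4 and 5 its 2 spots held 1 identical value, and its mean was -0.24 once the median of the surrounding spots was removed and -0.17 with replicate 2 turned.

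Among the other small-subunit factors 3 means were below 0 and 4 above it, or 2 and 5 with replicate 2 turned. UTP7, a WD-repeat protein gene of the processome, was at -2.43, -1.02, 0.50 and -1.15 on replicates 2 to 5 and at -1.02 on replicate 1. It was below 0 on 4 of the 5 arrays, with a mean of -1.03 ± 1.20 (SD, n = 4), a 2.04-fold difference, and an adjusted p = 0.834 by limma. Its 2 spots were at -1.57 and -0.47 on replicate 3. On replicate 4, the array above 0, they were on opposite sides of 0, at 1.14 and -0.15. The mean was -0.56 without replicate 2 and 0.19 with it turned. On replicate 2 the surrounding spots had a median of -2.46, about the value of UTP7 itself. On replicate 5 they were at 0.53, on the other side of 0 from UTP7.

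RRP5, which acts in the assembly of both subunits, had one of the 3 smallest SDs together with a mean away from 0. Its ratios were -0.74, -0.45, -0.43 and -0.18 on replicates 2 to 5 and -0.57 on replicate 1, with both spots inside their block and no shared value. The mean was -0.45 ± 0.23 (SD, n = 4), a 1.36-fold difference, lower on 5 of 5 arrays, with limma's adjusted p = 0.851 and place 1224 from the lowest of the 5539 genes. With the surrounding median removed it was -0.23, and with replicate 2 turned it was -0.079.

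RRP12, which encodes a repeat protein needed for subunit export, was at 1.01, -0.43, 0.94 and 1.07 on replicates 2 to 5 and at 0.60 on replicate 1. It was above 0 on 4 of 5 arrays, with a mean of 0.65 ± 0.72 (SD, n = 4, limma's adjusted p = 0.841), and held a shared value on 3 arrays. Turning replicate 2 gave it a mean of 0.14. The spots around RRP12 had medians of 0.65, -0.30, 0.34 and 0.87 on replicates 2 to 5, and its mean was 0.25 with the surrounding median removed. With outer values shared with another gene's spot left out, too few arrays remained for a test of RRP12. NOP14, whose product works with Noc4 in small-subunit assembly, was at 0.80, 0.06, 0.55 and 0.19, but at -0.66 on replicate 1. Its mean was 0.40 ± 0.34, and 0.00054 with replicate 2 turned. On replicates 2, 4 and 5 both spots of NOP14 held the value of their surroundings exactly, and its mean was -0.04 once that was removed.

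The RNA helicases remodel RNA in the assembling subunits. Of the 9 helicase genes 6 averaged below 0 and 3 above 0. DBP9, a DEAD-box helicase gene of large-subunit assembly, was at 0.02, -2.77, -1.51 and -1.91 on replicates 2 to 5 and at 0.21 on replicate 1. Ratios were thus strongly lower on replicates 3, 4 and 5 and near 0 on replicates 1 and 2. The mean was -1.54 ± 1.17 (SD, n = 4), a 2.91-fold difference with a standard error of 0.48 and an adjusted p = 0.834 by limma, at place 95 from the lowest of 5539 genes.

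The 2 spots of DBP9 agreed in direction where it was low: -2.25 and -3.29 on replicate 3, -1.35 and -1.68 on replicate 4, and -1.78 and -2.04 on replicate 5. Spots around it had medians of 0.35, -0.10, -0.09 and -0.14 on replicates 2 to 5, so its low values stood out from their surroundings. With the surrounding median removed its mean was -1.54 ± 0.97 (SD, n = 4), and neither spot shared a value with a neighbour. Its mean was -1.55 with replicate 2 turned. It did not pass the test over all genes, and replicate 1 did not share its direction.

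DRS1, another DEAD-box helicase gene for the large subunit, was at 0.03, -0.13, -3.46 and -0.26 on replicates 2 to 5 and at -0.05 on replicate 1. Only replicate 4 was far from 0, with spots at -3.46 and -3.47 among surroundings at 0.16, and the mean of -0.95 ± 1.68 (SD, n = 4) was -0.12 without it. HAS1, a helicase gene that serves both subunits, was at 0.39, -0.36, 0.13 and 0.99, and 0.59 on replicate 1. Its mean was 0.29 ± 0.56, or 0.092 with replicate 2 turned, and with the surrounding median removed its 4 values were 0.24, 0.44, 0.26 and 0.37, a mean of 0.33 ± 0.094 with an adjusted p = 0.852 by limma.

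The rRNA methyltransferase genes NOP2, SPB1 and RRP8 act on the large-subunit rRNA. NOP2 was at 1.07, -1.12, -0.47 and -0.81 on replicates 2 to 5 and at 0.80 on replicate 1, with a mean of -0.33 ± 0.97 (SD, n = 4). RRP8 was at -2.31, 0.43, 1.23 and 1.63, with -1.42 on replicate 1, and a mean of 0.24 ± 1.78, one of the 3 largest SDs. In both genes replicates 1 and 2 fell on one side of 0 and replicates 3, 4 and 5 on the other. With the sign of replicate 2 turned, RRP8 was at 1.40 and NOP2 at -0.87, both at an unadjusted p under 0.05 and with adjusted p = 0.839 by limma. On replicate 2 the spots around RRP8 had a median of -2.14 and those around NOP2 1.02, near the genes' own values. With the surrounding median removed the 2 genes were at -0.17 and 0.05 on that array. NOP2 held a shared value on 2 arrays.

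Nop7, Erb1 and Ytm1 form a complex required for processing of the large-subunit rRNA precursors. NOP7 had the largest SD of the 60 genes, with 1.84, 0.88, -1.76 and -2.66 on replicates 2 to 5 and 0.06 on replicate 1. Its mean was -0.42 ± 2.13 (SD, n = 4), and the spots around it had medians of 1.62, 0.03, -1.29 and -2.82. The mean of NOP7 was -1.35 with replicate 2 turned. The median of the 3 genes of this complex was 1.78 on replicate 2 and -1.68 on replicate 4, both of them the value of YTM1. These lay on opposite sides of 0 as deposited, so turning replicate 2 (-1.78) necessarily put them on the same side. The spots around YTM1 had medians of 1.06 on replicate 2 and -1.85 on replicate 4. With the surrounding median removed YTM1 was at 0.72 and 0.17, and it held a shared value on 2 arrays.

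The GTPases Nog1, Nog2 and Nug1 time late steps of large-subunit assembly. Their 3 means lay between -0.32 and 0.19. NOG1 was at -0.18, -1.08, -0.45 and 0.41 on replicates 2 to 5 and at 0.52 on replicate 1, with a mean of -0.32 ± 0.62 (SD, n = 4) and a shared value on 2 arrays. Among the other 14 large-subunit factors, among them the ribosomal protein relatives RLP7 and RLP24 and the export adaptor gene NMD3, 10 means were below 0 and 4 above it, from -0.85 to 0.27.

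EBP2, in that last set, encodes a protein needed for large-subunit assembly. Its ratios were -1.14, -0.23, -1.30 and -0.74 on replicates 2 to 5, all below 0, and 0.13 on replicate 1. The mean was -0.85 ± 0.48 (SD, n = 4), a 1.80-fold difference with an adjusted p = 0.834 by limma, and -0.28 with replicate 2 turned. Its 2 spots lie in the last columns of their block and hold 1 identical value on replicates 2, 3 and 5, and on replicate 4 one of them, at -1.73, is identical to a neighbour. With the surrounding median removed the mean was -0.11 ± 0.054, and with all values identical to a neighbour left out too few arrays remained for a test of EBP2.

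Shared values and position were also described for the group as a whole. Of the 60 genes 31 held a value identical to that of an adjacent spot, their own second spot included, on at least 1 of the 4 arrays (51.7%, against 50.3% of all genes). They did so on 1 array for 8 genes, on 2 for 11, on 3 for 11 and on 4 for EBP2. Across the 60 genes a gene's ratio correlated with the median of the spots around it with Pearson r = 0.91, 0.65, 0.69 and 0.83 on replicates 2 to 5. Across all genes these were 0.78, 0.64, 0.60 and 0.74. These correlations are across genes that share an array, and genes are not independent replicates.

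**Figure D3:**
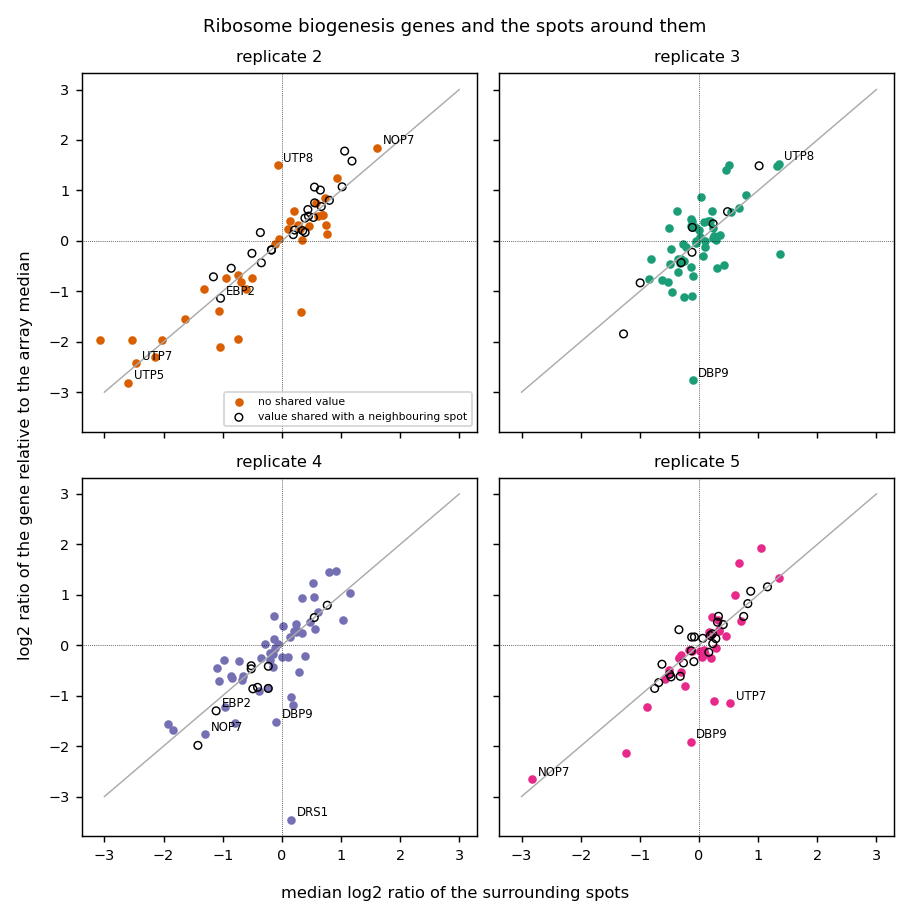
Each panel is 1 array, with the 60 genes as points: the median log2 ratio of the surrounding spots (horizontal axis) against the gene's own log2 ratio (vertical axis), the grey line marking equal values, and open circles the genes whose value is shared with a neighbouring spot. Most genes follow the line (r from 0.65 to 0.91), while DBP9 on replicates 3, 4 and 5 and DRS1 on replicate 4 lie well below it.

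With the surrounding median removed the means ran from -1.54 to 0.51. The median absolute mean was 0.18 for the 60 genes after this step and 0.22 before it, against 0.18 and 0.32 for all genes, so it moved less among the 60. Of the 60 means 19 changed sign (31.7%, against 26.1% of all genes), 24 kept their sign but shrank by over 1.5 times (40%, against 38%), and 6 kept it and grew by over 1.5 times (10%, against 12.4%). The median SD over arrays was 0.34 for the 60 genes after this step and 0.42 for all genes. Again 2 lower genes and 0 higher ones were at an unadjusted p under 0.05, against 2.8 and 1.9% of all genes, and 0 passed after adjustment. These were DBP9 and, in place of EBP2, NOP12 at -0.77 ± 0.69 (SD, n = 4, limma's adjusted p = 0.852).

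With outer values shared with another gene's spot left out, 55 of the 60 genes could be tested, of which 1 was lower (DBP9) and 0 higher at an unadjusted p under 0.05, against 4.24 and 1.28% of all genes. With every outer value identical to an adjacent spot left out, 48 could be tested, again with 1 lower (DBP9) and 0 higher, against 4.56 and 1.06%. With the sign of replicate 2 turned, 4 of the 60 were lower (DBP9, NOP2, RRP9 and RRP14) and 1 higher (RRP8), against 2.29 and 3.3%, and 0 passed after adjustment in any of these settings.

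NOP12, which encodes an RNA-binding protein of large-subunit rRNA processing, is named here after its values were seen. Its spots did not agree on the arrays where it was low. On replicate 4 they were at 0.11 and -2.47, and on replicate 5 at -2.61 and 0.40, so a different spot was low on each array. The differences of 2.58 and 3.01 log2 units were the largest between duplicate spots of the 60 genes on those arrays.

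**Figure D4:**
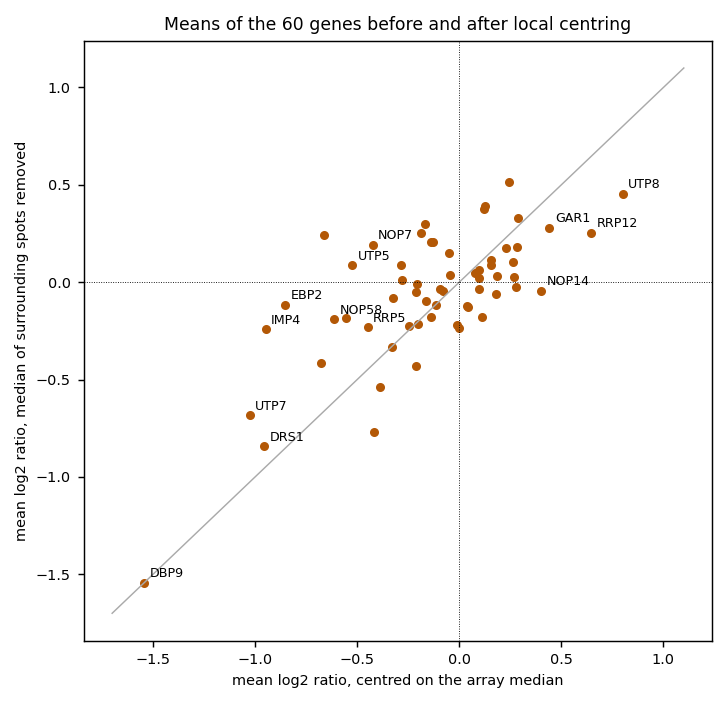
Mean log2 ratio over replicates 2 to 5 of each of the 60 genes, centred on the array median (horizontal axis) and with the median of the surrounding spots removed (vertical axis); the grey line marks equal values. DBP9 lies on the line at -1.54, while EBP2 moves from -0.85 to -0.11 and IMP4 from -0.95 to -0.24.

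Across the 60 genes the adjacent spots of a gene correlated with r = 0.86, 0.83, 0.77 and 0.79 on replicates 2 to 5. This includes 10, 3, 5 and 11 genes whose 2 spots held 1 identical value, and without those r was 0.85, 0.81, 0.76 and 0.77. Once the surrounding median was removed it was 0.57, 0.72, 0.63 and 0.46 over all 60. Between pairs of these 4 arrays r across the 60 genes ran from -0.34 to 0.33, and across all genes from -0.03 to 0.13, so duplicate spots lay closer together than arrays did. After that step the pairs of arrays ran from -0.13 to 0.56, which overlaps the range of the duplicate spots.

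The pairs furthest below 0 among replicates 2 to 5 were replicate 2 with replicate 4 (-0.34) and with replicate 5 (-0.32). Over all genes the same pairs were at -0.035 and -0.0028. After removal of the surrounding median, replicate 2 correlated with replicates 3, 4 and 5 at 0.09, -0.13 and 0.14 across the 60 genes, and at 0.089, 0.031 and 0.041 across all genes. Replicate 1 correlated with replicate 2 at 0.41 across the 60 genes and with replicates 3, 4 and 5 at -0.29, -0.29 and -0.15, but across all genes these were -0.014, -0.064, -0.045 and 0.043. The signs differed between the sets of genes and the settings, and all values over all genes were near 0, so these do not settle the direction of replicate 2. Replicates 3 and 5, whose titles carry the same code, correlated across the 60 genes with r = 0.09. With the surrounding median removed this was 0.56, and 0.40 without DBP9, against 0.14 across all genes.

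Of 86 further ribosome biogenesis genes, 85 were measured. After adjustment 0 of them passed, and without adjustment 3 were lower and 0 higher at the same limit of 0.05, or 3.53% lower against the 3.99% of all genes. Their means ran from -2.05 to 1.76, with a median of 0.00. Of the 85 genes 17 kept 1 sign on replicates 2 to 5 (20%, against 14.2% of all genes and 5% of the 60) and 10 had a mean past 1 log2 unit (11.8%, against 8.14 and 3.33%). On these measures the further genes lay above all genes where the 60 lay below. This did not hold once replicate 2 was turned: 10.6% of the further genes then kept 1 sign, against 13.6% of all genes and 18.3% of the 60, and 5.88% were past 1 unit, against 7.53 and 6.67%. None of these differences was tested.

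RIO2, a kinase gene of late small-subunit maturation, was at -2.92, -1.94, 0.30 and -3.65 on replicates 2 to 5 and at -0.71 on replicate 1, with a mean of -2.05 ± 1.72 (SD, n = 4). KRI1, a small-subunit factor gene, was at -1.31, -0.34, -1.80 and -1.47, and at 0.12 on replicate 1, with a mean of -1.23 ± 0.62. NIP7, a large-subunit factor gene, was at -2.19, 0.16, -0.92 and -1.60, and at 0.45 on replicate 1, with a mean of -1.14 ± 1.01 (limma's adjusted p = 0.834 for each of the 3). KRI1 was below 0 on all of replicates 2 to 5 and the other two on 3, while on replicate 1 only RIO2 was below 0. The means were -0.22 for RIO2, -0.28 for KRI1 and -0.56 for NIP7 once the surrounding median was removed. Turning replicate 2 gave -0.59 for RIO2, -0.57 for KRI1 and -0.041 for NIP7.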

How the data were processed

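Two-colour arrays of co-precipitated RNA (5 arrays, 1 group, orientation as labelled) were analysed from the deposited value tables. Each deposited value is the log10 of a channel ratio at a spot, a scale worked out from the values: among 2000 random spots of each array, 1.5 to 18.4% gave an exact quotient of integers no larger than 3000 (tolerance 1e-09 log units) when read in base 10, against at most 0.55% in base 2 or e. The scanner, any background correction, any normalization and the numerator channel are unknown.

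From these, log2 ratios with an array median of 0 were computed and the spots of each gene averaged. Gene names came from the platform annotation with symbols updated by RefSeq (assembly R64; 5534 of 5539 genes matched). A single gene symbol was available for 11138 spots of the 4-array platform, none for 1662 and several for 0. For replicate 1 these were 6695, 985 and 0. Dropped was 1 row without a numeric ID, and 2 repeated IDs were merged.

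The main test was limma 3.58.1 (R 4.3.3) on replicates 2 to 5 against 0, two-sided, with Benjamini-Hochberg adjustment over all genes. Replicate 1, from a separately processed table, was set beside it. Surrounding medians used a window of 5 by 5 spots without the gene's own spots. Recovery was tested on simulated data, in 20 draws with 200 changed genes each, after permuting the genes of every array. Each draw mixed changes of 1, 2, 3 and 4 log2 units, each in 1 direction on all 4 arrays. The members and lists were chosen with earlier results of these data known. Genes named with values are those with the 5 highest and 5 lowest means, an unadjusted p under 0.05, 1 sign on all 5 arrays, the 3 smallest and 3 largest SDs, and the largest absolute mean of each of 12 roles. A few others, given for their extreme value on an array or in a setting, were chosen after their values were seen. Alternatives changed centring, scaling, spot summary, position, shared values, array weights, platform, the pair of arrays sharing a title code, and left out each array. No coordinates or sequences are given.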

Additional observations from a re-analysis of the deposited data

Results flagged for a closer look

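In 2 of the 24 genes named with values by the naming rule, 1 of the 4 arrays lay apart from the others by more than Dixon's 95% critical value for a gap relative to the range. In groups not chosen by their values chance gives about 1 such case in 20, but these genes were named for extreme means or SDs, so that rate does not apply and the 2 cases are given as values. DRS1 was at -3.46 on replicate 4, with the nearest other array at -0.26, a gap of 0.918 of the range, and its mean without that array was -0.12. RRP12 was at -0.43 on replicate 3, with the nearest other array at 0.94, a gap of 0.913 of the range, and its mean without that array was 1.01. The spots around RRP12 had a median of -0.30 on replicate 3.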

How the results depend on the processing

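Under the 16 alternatives the number of ribosome biogenesis genes past the adjusted threshold stayed at 0, as did that of all genes (limma, adjusted p of the named genes from 0.735 to 1.00). Some alternatives could not change the means of the named genes. Asking for values on all 4 arrays left out none of the 5539 genes, and the median of 2 spots is their mean. The number at an unadjusted p under 0.05 was 2, but 1 with shared outer values left out (55 of the 60 genes tested), 1 with all values identical to a neighbour left out (48 tested, an alternative chosen after seeing the data) and 5 with replicate 2 turned, of which 4 were lower and 1 higher (2.29 and 3.3% of all genes). Leaving out 1 array gave 2 to 3. The group's difference from other genes ran from -0.14, with replicate 2 turned, to 0.02 over all alternatives. Its SD between arrays was 0.19 as deposited. DBP9 was from -2.06 to -1.13, and was not past an unadjusted 0.05 without replicate 3 or with replicates 3 and 5 averaged. EBP2 was from -1.06 to -0.11, and was not past it with the local median removed, shared outer values left out, replicate 2 turned, replicate 1 added, array weights, or without replicate 2, 4 or 5, so a count of 2 did not always hold the same genes. With replicate 2 turned, 15 of the 24 named genes moved by over 1.5 times with the same sign and 5 changed sign. Of 375 values of named genes, which include those that could not change, 21 changed sign, and the cause was not tested. With the local median removed UTP5 was at 0.088, NOP7 at 0.19, UTP21 at 0.297, UTP18 at -0.13 and NOP14 at -0.043. With replicate 2 turned UTP7 was at 0.19, UTP5 at 0.88, UTP21 at 0.24, UTP18 at -0.021 and CBF5 at -0.059. UTP18 was at -0.045 on first spots only, and with replicate 1 added UTP21 was at 0.022 and RRP8 at -0.090. RRP8 was at -0.018 with replicates 3 and 5 averaged. Leaving out each array in turn gave -1.02 to 0.24 for UTP5, -0.31 to 0.048 for UTP21, -1.18 to 0.32 for NOP7, -0.038 to 0.12 for UTP18 and -0.22 to 1.096 for RRP8. Among genes that kept their sign it gave -1.53 to -0.56 for UTP7, -1.28 to -0.12 for DRS1, -0.80 to -0.068 for NOP2, -0.57 to -0.072 for NOG1, 0.051 to 0.50 for HAS1, 0.12 to 0.61 for GAR1, 0.014 to 0.43 for RRP7, 0.026 to 0.18 for CBF5, 0.50 to 1.01 for RRP12 and 0.56 to 1.23 for UTP8. No paired analysis was possible because the arrays form 1 group. Genes left out for low signal could not be tried, since only ratios were used.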
